A study of Homo sapiens with 12 samples.

Results

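The genes that encode the proteins of the cytosolic ribosome and the factors that drive peptide elongation were followed in 2 lung cancer cell lines. A gene was a member when its symbol was RPL or RPS with a number and at most a suffix A, L, AL, X or L1, or when it was one of 9 named genes for stalk proteins, RPSA and elongation factors. Of the 12584 genes in the count table, 63 were members, 32 for the large subunit, 20 for the small subunit, 7 paralogs with an L or L1 suffix or the suffix AL, and 4 elongation factors. Another 27 symbols that match the same rule, among them RPL4, RPL10A, RPLP2, RPS4X, RPS18 and EEF1G, are not in the table used here and were not analysed here. RNA was sequenced from A549 and PC9, established lines of non-small cell lung cancer, to ask which genes respond to the homeodomain transcription factor HOXC6. Both lines were infected with a lentiviral pCDH vector and kept under neomycin selection, so that all 4 groups carry a vector. A549-HOXC6 and PC9-HOXC6 carry the HOXC6 gene in it, and A549-NEO and PC9-NEO carry it empty, with 3 libraries per group and 12 in all. The methods do not say whether the infected cells were clones or pools, and A549 was grown in RPMI and PC9 in DMEM, so that line and medium cannot be told apart.

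The ribosome is built from a large and a small subunit, each a set of proteins on ribosomal RNA, and nearly every protein is present as 1 copy per particle. In each round of elongation EEF1A1 brings an aminoacyl-tRNA to the ribosome, EEF1B2 and EEF1D exchange the nucleotide on it, and EEF2 moves the ribosome along the mRNA. The mRNAs of these proteins share a 5' terminal oligopyrimidine (TOP) tract, a C at the first base followed by a run of pyrimidines, through which their translation is regulated together by TOR signalling. They are among the most abundant mRNAs of growing cells.

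Libraries held between 1212053 and 3286577 counts, over part of the genes. Levels are given as CPM, which divides the counts of a gene by the scaled total of its library, and a count of 3 equals 0.915 to 2.57 CPM. HOXC6 itself is not in the table used here, so the labels could not be checked against it. The epithelial markers KRT7, KRT18 and CDH1 were present in all groups, whereas EPCAM had a mean of 5.76 CPM in A549-NEO and 196 CPM in PC9-NEO. The alveolar genes NKX2-1, SFTPB and NAPSA and the fibroblast, leukocyte and endothelial genes COL1A2, DCN, LUM, PDGFRB, PTPRC and VWF had group means under 5 CPM, COL1A1 and CD68 were at 24.8 to 67.7 and 8.82 to 18.5 CPM, and KRT8, KRT19, CD3E, PECAM1 and CDH5 are not in the table used here. The third A549-HOXC6 library stood apart from the other libraries of its group, with more of its counts on members and the lowest scaling factor (0.901) of the 12 libraries, and the counts of members called in A549 and in the difference between the lines are given with and without it. The labels call the replicates independent but name no culture or date, so p-values measure the spread between these libraries.

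Because a TOP tract is the feature that these mRNAs are known for, the annotated first base of each canonical transcript was read from GRCh37. A tract was scored on the transcribed strand as a C followed by at least 4 bases that are each C or T. It was read from the annotated first base on in 48 of the 63 members (76.2%), in comparison to 615 of 12427 genes of the table with a window (4.95%). Allowing a start up to 5 bases to either side, it was found in 53 members (84.1%) and in 21.9% of all genes, and the median tract was 11 bases in members and 6 bases in all genes. The windows of 8 members that the results turn on are shown with the longest tract in capitals. Each runs 5' to 3' over 30 bases of GRCh37, 15 before and 15 from the annotated first base on, which is the 16th letter, so that the second part is the start of exon 1 and of the 5' UTR.
EEF1A1, chr6:74230741-74230770, reverse strand: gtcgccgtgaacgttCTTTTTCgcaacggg
EEF2, chr19:3985447-3985476, reverse strand: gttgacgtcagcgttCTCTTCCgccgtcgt
RPS24, chr10:79793606-79793635, forward strand: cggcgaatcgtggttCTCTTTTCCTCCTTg
RPL37, chr5:40835310-40835339, reverse strand: tagcggaagtgCCTTCTCTTCCggtctttc
RPS27A, chr2:55459809-55459838, forward strand: tgcgcggcgttCTTCCTTTTCgatccgcca
RPL35, chr9:127624222-127624251, reverse strand: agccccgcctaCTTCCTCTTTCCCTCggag
RPS16, chr19:39926575-39926604, reverse strand: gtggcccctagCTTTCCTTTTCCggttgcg
RPLP1, chr15:69745142-69745171, forward strand: gtataggcgcgagagCCCCTTTCCTCagct
From the annotated first base on, EEF1A1 and EEF2 had tracts of 7 bases, as did RPSA and RPS3A, and RPS24 had 14 bases. The tract of 15 bases in RPL35 starts before the annotated first base and has 11 bases from it on. The elongation factor EEF1B2 had 16 bases.

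No tract was found within 5 bases of the annotated start in 10 members, among them RPL9, RPL23, RPL27, RPS15 and the paralogs RPL3L, RPL7L1, RPL10L and RPL39L. A missing tract says only that these letters are not at that annotated base. The paralogs without a tract are shown because their levels were low beside those of most members. RPL22L1 and RPS10 were low as well and had tracts of 10 and 11 bases near the annotated start. Whether level and tract go together was not tested.
RPL3L, chr16:2004676-2004705, reverse strand: agtcctggccctgccactcgacctctggcg
RPL7L1, chr6:42847339-42847368, forward strand: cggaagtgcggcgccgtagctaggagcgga
RPL10L, chr14:47120970-47120999, reverse strand: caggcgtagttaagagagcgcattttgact
RPL39L, chr3:186857270-186857299, reverse strand: gcatccggggaaatcgcggtcttagcatcc
The first of these, RPL3L, is the paralog of RPL3 that is best known from striated muscle, and RPL10L and RPL39L are best known from testis.

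Members took a large share of the counts in each library. In A549-NEO the share of all counts that fell on members was 10.5%, 10.6% and 10.1% in the 3 libraries (mean 10.4 ± 0.242, SD), and in A549-HOXC6 it was 8.99%, 9.14% and 9.87% (9.33 ± 0.473). In PC9-NEO it was 7.91%, 8.07% and 8.35% (8.11 ± 0.223), and in PC9-HOXC6 8.69%, 9.01% and 9.39% (9.03 ± 0.354). Counts are shares of a library, so that fewer cells with an mRNA and less of it per cell cannot be told apart. The share was lower in every A549-HOXC6 library than in every A549-NEO library, and higher in every PC9-HOXC6 library than in every PC9-NEO library. After TMM scaling the third A549-HOXC6 library was at 11.0%, above the 10.1% to 10.5% of A549-NEO, so that the A549 groups overlapped, whereas the PC9 groups stayed apart at 7.56% to 7.91% and 8.69% to 9.41%. EEF1A1, EEF1B2, EEF1D and EEF2 alone took 2.29 ± 0.022% of the counts in A549-NEO, 1.97 ± 0.033% in A549-HOXC6, 1.71 ± 0.062% in PC9-NEO and 1.77 ± 0.042% in PC9-HOXC6 (SD, n = 3).

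**Figure D1:**
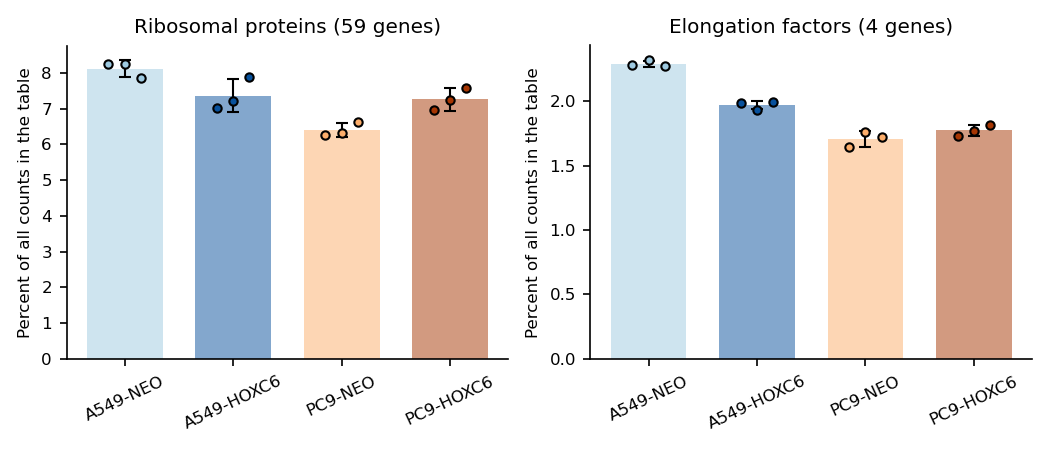
Share of all counts in the table that fell on the 59 ribosomal protein members (left) and on the 4 elongation factors (right), in percent. Points are libraries, bars are means and error bars are SD over 3 libraries; the means of the ribosomal protein members were 8.12% in A549-NEO, 7.36% in A549-HOXC6, 6.40% in PC9-NEO and 7.26% in PC9-HOXC6.

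Between genes, levels were compared as normalized CPM per kilobase of the canonical transcript, averaged over 12 libraries. Among the highest were RPL8 (5459.6), RPS16 (4864), RPL13A (4716), RPS2 (3209) and EEF1A1 (3144). RPL8 and RPL13A belong to the large subunit, and RPS2 and RPS16 to the small subunit. In group means RPL8 was at 5376 ± 101 (SD, n = 3) in A549-NEO and 4849 ± 273 in PC9-NEO, and RPS16 at 7006 ± 117 and 2486 ± 153, so that RPS16 stood above RPL8 in A549-NEO and below it in PC9-NEO. The neighbours RPS2 (3577 ± 82.2) and EEF1A1 (3544 ± 69.1) lay within 1 SD of each other in A549-NEO. The lowest were RPL7L1 (17.9), RPL22L1 (9.29), RPL3L (5.91), RPS10 (1.52) and RPL10L, which had 0 counts in every library. RPS10, for a small subunit protein, had 0 to 5 counts per library, and 31.5% of its exon bases are shared with the read-through gene RPS10-NUDT3 on the same strand. RPS10 and RPL10L had too few counts to be tested, which left 61 members tested in each comparison. Reads can also be split with copies, since 56 members have at least 1 pseudogene named after them, RPL21 the most with 133, and RPL36, RPL26, RPL13A, RPL7A and RPS2 share over 10% of their exon bases with another gene on the same strand. The levels per kilobase depend on the transcript, as with RPL37, whose canonical transcript of 7573 bases puts it at 59.0.

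**Figure D2:**
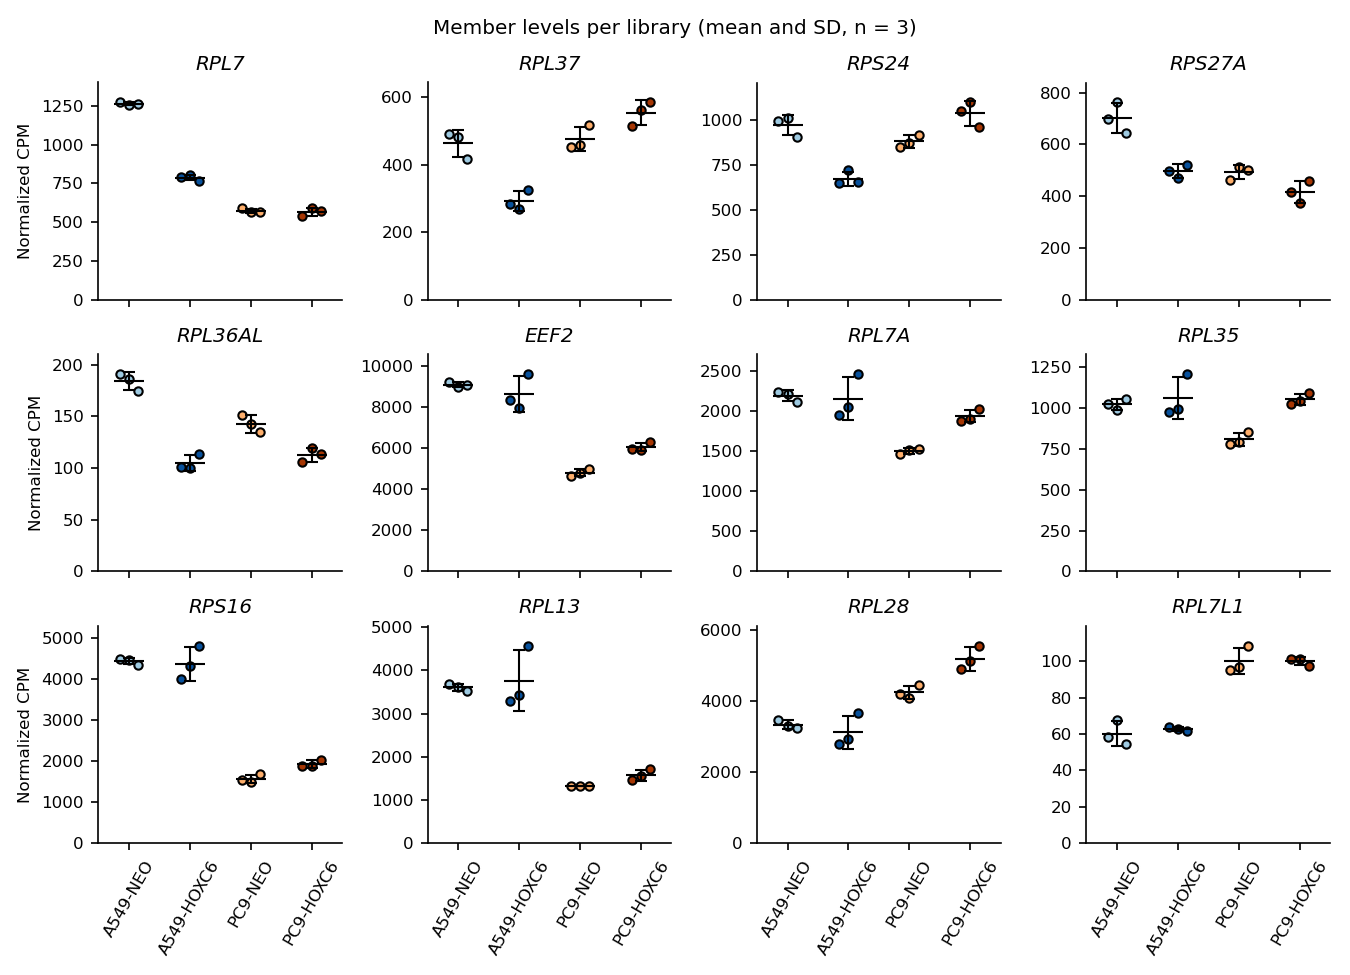
Normalized CPM of 12 members in each library, by group; points are libraries and lines with error bars are mean and SD over 3 libraries. RPL7, RPL37, RPS24, RPS27A and RPL36AL were lower in each A549-HOXC6 library than in each A549-NEO library, and EEF2, RPL7A and RPL35 were higher in each PC9-HOXC6 library than in each PC9-NEO library.

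In A549, the HOXC6 vector went with lower levels of a subset of members and with higher levels of none. At an adjusted p under 0.05, 21 of 61 members (34.4%) were lower in A549-HOXC6 in comparison to A549-NEO, where 20.7% of all genes tested were lower, and 0 were higher, where 18.9% of all genes tested were higher. At an unadjusted p under 0.05 the numbers were 22 lower and 0 higher, and DESeq2 called 18 lower and 0 higher. For neither is the share of all genes given. The median log2 fold change was -0.09 over the members tested and -0.00 over all genes tested. The groups did not overlap for 16 of the 61 members with a lower level, a share close to the 23.6% of all genes that were apart in this direction. They did not overlap for 1 with a higher level, where 26.8% of all genes were apart. That 1 was RPL39L, which did not pass the test. By role, 11 of 32 large subunit genes, 8 of 19 tested small subunit genes, 1 of 6 tested paralogs and 1 of 4 elongation factors were lower.

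The largest change among members whose libraries were apart was that of RPL36AL, a paralog that encodes a protein like that of RPL36A. RPL36AL (ENSG00000165502, GRCh37 chromosome 14 from 50085248 to 50087344) was at 191, 186 and 175 CPM in the 3 A549-NEO libraries and at 101, 100.2 and 113 CPM in the A549-HOXC6 libraries. All A549-HOXC6 values lay below all A549-NEO values (log2 fold change -0.86 ± 0.10 (SE), adjusted p = 2.4e-07). RPL7, a large subunit protein, fell from 1274, 1255 and 1265 CPM to 791, 803 and 767 CPM (log2 fold change -0.73 ± 0.07 (SE), adjusted p = 5.2e-09). RPL37, also of the large subunit, had 491, 484 and 417 CPM in A549-NEO and 283, 269 and 325 CPM in A549-HOXC6 (log2 fold change -0.71 ± 0.09 (SE), adjusted p = 6.0e-07). These 3 large subunit genes or paralogs were apart without overlap.

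Of the small subunit, RPS24 (ENSG00000138326, GRCh37 chromosome 10 from 79793518 to 79816571) had 997, 1011 and 906 CPM in A549-NEO and 649, 719 and 653 CPM in A549-HOXC6 (log2 fold change -0.57 ± 0.08 (SE), adjusted p = 1.3e-06). RPS27A, which encodes ubiquitin fused to a small subunit protein, had 699.8, 763 and 644 CPM and 497, 469 and 522 CPM (log2 fold change -0.54 ± 0.08 (SE), adjusted p = 5.6e-06). In A549-HOXC6 their levels were 0.671 and 0.686 times those in A549-NEO, with no overlap. RPS6, the small subunit protein that S6 kinases phosphorylate, fell by 0.37 on the log2 scale (adjusted p = 9.7e-05). RPL5 and RPL11, which bind 5S rRNA together and can also bind MDM2, had log2 fold changes of -0.39 and -0.21 (adjusted p = 0.00016 and 0.04). The call of RPL11 was lost in 4 of the 6 fits that left out 1 library and that of RPL5 in none of them. RPS15A, whose groups overlapped, had 210.3, 213 and 165 CPM in A549-NEO and 111, 139.5 and 165 CPM in A549-HOXC6 (adjusted p = 0.00059).

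RPL26, for a large subunit protein, had the lowest log2 fold change (-1.13 ± 0.31 (SE), adjusted p = 0.0047), and was the only member called below -1, the fold threshold of the methods, where 5.51% of all genes tested were. No member was called above 1, where 1.7% of all genes were. It rested on few counts, 109, 105 and 37 in A549-NEO against 26, 28 and 29 in A549-HOXC6, so that the third A549-NEO library lay near the HOXC6 libraries, and its call was lost without the first A549-HOXC6 library and with DESeq2. EEF1A1 was the only elongation factor that was lower, at 12252, 12718 and 12365 CPM in A549-NEO and 11024, 10858 and 10988 CPM in A549-HOXC6 (log2 fold change -0.23 ± 0.05 (SE), adjusted p = 0.00091). EEF2 was at 9224, 8956 and 9088 CPM and 8327, 7973 and 9608 CPM (log2 fold change -0.12 ± 0.06 (SE), adjusted p = 0.11), and the third A549-HOXC6 library lay above all A549-NEO libraries. Without that library EEF2 passed the test as lower (log2 fold change -0.18). EEF1B2 and EEF1D had log2 fold changes of -0.04 and 0.02 that did not pass the test. These calls turned round once GC content and length were corrected for, where EEF1A1 did not pass (-0.04) and EEF2 (-0.40), EEF1D (-0.27) and EEF1B2 (-0.20) were lower.

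The third A549-HOXC6 library moved many of these values. RPL13, for the large subunit, had 3687, 3627 and 3516 CPM in A549-NEO and 3297, 3425 and 4578 CPM in A549-HOXC6, and RPL8 had 5876, 5673 and 5707 CPM and 5294, 5501 and 7321 CPM. In both genes the first and second A549-HOXC6 libraries lay below all A549-NEO libraries and the third above them. Without that library 36 members were lower and 0 higher, and RPL13 and RPL8 were then among those lower, with log2 fold changes of -0.13 and -0.12. Over the 6 fits that left out 1 library, the number lower ran from 15 without the second A549-NEO library to 36, and 14 of the 21 members were called in every one of them. The share of all genes called is not given for these fits, so the rise to 36 cannot be set against a background.

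In PC9, most members were higher with the HOXC6 vector before GC content and length were corrected for, each by a small amount. Of 61 members tested, 40 (65.6%) were higher in PC9-HOXC6 in comparison to PC9-NEO, where 13.3% of all genes tested were higher, and 2 were lower, where 14.2% of all genes were lower. None of them was called above 1 or below -1 on the log2 scale, where 0.962% and 3.56% of all genes were. The median log2 fold change was 0.24 over members and -0.00 over all genes tested, and the groups were apart for 37 members that were higher and 2 that were lower, where 19.5% and 20.4% of all genes were. By role, 22 of 32 large subunit genes, 16 of 19 tested small subunit genes and 2 of 4 elongation factors were higher. No paralog with an L or L1 suffix or AL was higher. Of the 40 calls, 20 were kept once GC content and length were corrected for.

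Among the large subunit genes, RPL35 (ENSG00000136942, GRCh37 chromosome 9 from 127620159 to 127624260) had 779, 792 and 853 CPM in PC9-NEO and 1026, 1044 and 1092 CPM in PC9-HOXC6 (log2 fold change 0.39 ± 0.06 (SE), adjusted p = 9.3e-06). RPL7A had 1459.8, 1509 and 1529.9 CPM and 1879.9, 1906 and 2031 CPM (log2 fold change 0.37 ± 0.05 (SE), adjusted p = 3.4e-06). All PC9-HOXC6 values of both genes lay above all PC9-NEO values, and the same held for RPL24 (log2 fold change 0.36) and RPL27 (0.34), 2 further large subunit genes with adjusted p of 9.2e-05 and 0.00075. RPLP0 and RPLP1, the stalk proteins to which elongation factors bind, had 2261, 2419.8 and 2375 CPM and 600.4, 648 and 679 CPM in PC9-NEO. In PC9-HOXC6 they had 2563, 2683 and 3028 CPM and 703, 779.5 and 850.0 CPM, so that both rose, by 0.23 and 0.28 on the log2 scale (adjusted p = 0.0023 and 0.0025).

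Of the small subunit, RPSA, whose protein is also known as a laminin receptor, had 848, 957 and 991 CPM in PC9-NEO and 986, 1002 and 1221 CPM in PC9-HOXC6. Its groups overlapped (log2 fold change 0.20, adjusted p = 0.031), and the call was lost in 3 of 6 fits that left out 1 library. EEF2, which moves the ribosome along the mRNA, rose from 4649.6, 4772 and 4986 CPM to 5963, 5927 and 6272 CPM (log2 fold change 0.34 ± 0.05 (SE), adjusted p = 2.3e-06). EEF1A1 had 9914, 10728 and 10172 CPM and 10148, 10646 and 10676 CPM, which did not pass the test (log2 fold change 0.03 ± 0.04 (SE), adjusted p = 0.64). With GC content and length corrected for, EEF1A1 was higher (0.16) and EEF2 did not pass (0.09). EEF1D passed at an adjusted p of 0.046 but in none of the fits that left out 1 library, and EEF1B2 was apart between the groups without passing (0.15, adjusted p = 0.19).

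Both members that were lower in PC9-HOXC6 were also lower in A549-HOXC6. RPL36AL had 151, 142 and 134 CPM in PC9-NEO and 106, 119 and 114 CPM in PC9-HOXC6 (log2 fold change -0.34 ± 0.09 (SE), adjusted p = 0.0076). RPS27A had 464, 514 and 501 CPM and 416, 375 and 459 CPM (log2 fold change -0.23 ± 0.07 (SE), adjusted p = 0.017). Each was apart between the groups, but without the first PC9-HOXC6 library neither passed the test. The call of RPS27A was lost in 4 of the 6 fits that left out 1 library and with DESeq2, and both calls were lost once GC content and length were corrected for (-0.04 for RPS27A and -0.16 for RPL36AL). Without 1 library, 32 to 39 members were higher and 0 to 2 lower, and 31 of the 40 were called higher in every such fit. The share of all genes called is not given for these fits.

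Called members were lower in A549-HOXC6 and mostly higher in PC9-HOXC6, and the difference between the lines was tested itself, as an interaction over 12 libraries. The difference is the log2 fold change in A549 minus that in PC9. It was negative for 58 of 61 members, with a median of -0.31, in comparison to 0.05 over all genes tested. It passed the test for 35 members (57.4%), in each of them as a lower value in A549, where 8.44% of all genes were called in this direction, and for 0 members as a higher value, where 10.9% of all genes were and where 0 members had an unadjusted p under 0.05. DESeq2 called 39 lower and 0 higher, without a share of all genes for that fit. Among the 35 were 18 large subunit genes, 14 small subunit genes, RPL36AL, EEF1A1 and EEF2. RPL37 differed by -0.88 ± 0.12 (SE), adjusted p = 6.3e-07, RPS15A by -0.79 ± 0.16 (SE), adjusted p = 0.00045, RPS24 by -0.76 ± 0.10 (SE), adjusted p = 4.7e-07 and RPL7 by -0.67 ± 0.10 (SE), adjusted p = 2.0e-06. For RPL37, RPS15A and RPS24 this came with a lower level in A549-HOXC6 and a higher level in PC9-HOXC6, although the PC9 call of RPS15A was lost in 4 of 6 fits that left out 1 library and that of RPL37 in 3, whereas RPL7 had 589, 563 and 564 CPM in PC9-NEO and 541, 590.0 and 569.7 CPM in PC9-HOXC6, which overlapped. The difference of RPL26 (-1.06 ± 0.39 (SE), adjusted p = 0.048) was lost in 8 of 12 fits that left out 1 library. It was the only one called below -1, where 2.38% of all genes were, and 0 were called above 1, where 2.76% were.

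Taking calls within each line, 9 members were lower in A549-HOXC6 and higher in PC9-HOXC6, 2 were lower in both, 10 were lower in A549-HOXC6 and did not pass in PC9, 31 did not pass in A549 and were higher in PC9-HOXC6, and 9 passed in neither. The 9 were RPL9, RPL11, RPL24, RPL37, RPS6, RPS13, RPS15A, RPS20 and RPS24, of which RPL24 and RPS24 alone kept both calls in every fit that left out 1 library. In PC9 RPS6 and RPS15A were called in 2 of 6 such fits, RPL37 and RPS13 in 3 and RPL9 in 4, and DESeq2 did not call RPS6, RPS13 and RPS15A. In A549 RPL11 was called in 2 of 6, RPS20 in 3 and RPL9 in 5, and DESeq2 did not call RPL11. Across the 61 members the log2 fold changes of the 2 lines, which share no libraries, had a Spearman correlation of 0.267 and a Pearson correlation of 0.382, as a description across genes, which are not independent replicates. Without the third A549-HOXC6 library, 49 members passed the test of the difference, and over the 12 fits that left out 1 library the number ran from 24, without the second PC9-HOXC6 library, to 49. In all 12 fits, 20 of the 35 were called. The share of all genes called is not given for these fits.

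**Figure D3:**
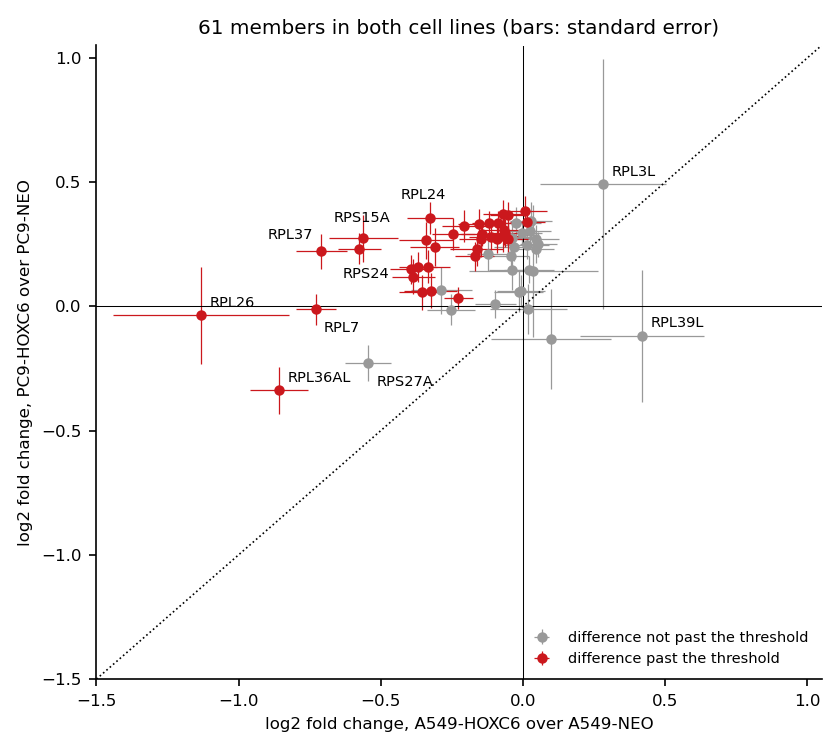
Log2 fold change of each of the 61 tested members in A549 (horizontal axis) and in PC9 (vertical axis), HOXC6 over NEO, with standard errors; the dotted line marks equal change. The 35 members past the test of the difference lie above the line, with 58 of 61 above it in all.

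GC content moved with these changes, in members and in the other genes. In A549 the 21 members that were lower had a median GC content of 43.7% in the canonical transcript, in comparison to 53.3% in the 40 members that did not pass. In PC9 the 40 members that were higher had a median of 52.4%, the 19 that did not pass 45.0%, and RPL36AL and RPS27A 41.6% and 41.5%. Across the members the Spearman correlation of GC content with the log2 fold change was 0.567 in A549 and 0.568 in PC9, and across all genes tested it was 0.530 and 0.527. The pattern over the members was thus of about the size seen over all genes, which share their libraries. After each library was corrected for smooth trends on GC content and transcript length, 47 members were lower and 0 higher in A549, with a median log2 fold change of -0.31, and 26 were higher and 1 lower in PC9, with a median of 0.12. Over all genes tested the median was then -0.06 in A549 and -0.04 in PC9. The share of all genes called under this correction is not given, so the counts of members under it stand without a background. Of the original calls, 17 of the 21 lower in A549, 20 of the 40 higher in PC9 and 0 of the 2 lower in PC9 were kept, and the 1 member then lower in PC9 was RPS12 (-0.16). Of the 35 members that differed between the lines, 35 remained called, and 49 were called in all. Members are also short, with a median canonical transcript of 921 bases against 3424 bases over all genes tested in A549. The TOP tract stood at the first base in 18 of the 21 members that were lower in A549 and in 29 of the 40 that did not pass. In PC9 it stood there in 32 of the 40 that were higher, 1 of the 2 that were lower and 14 of the 19 that did not pass. Whether tract and call go together was not tested.

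**Figure D4:**
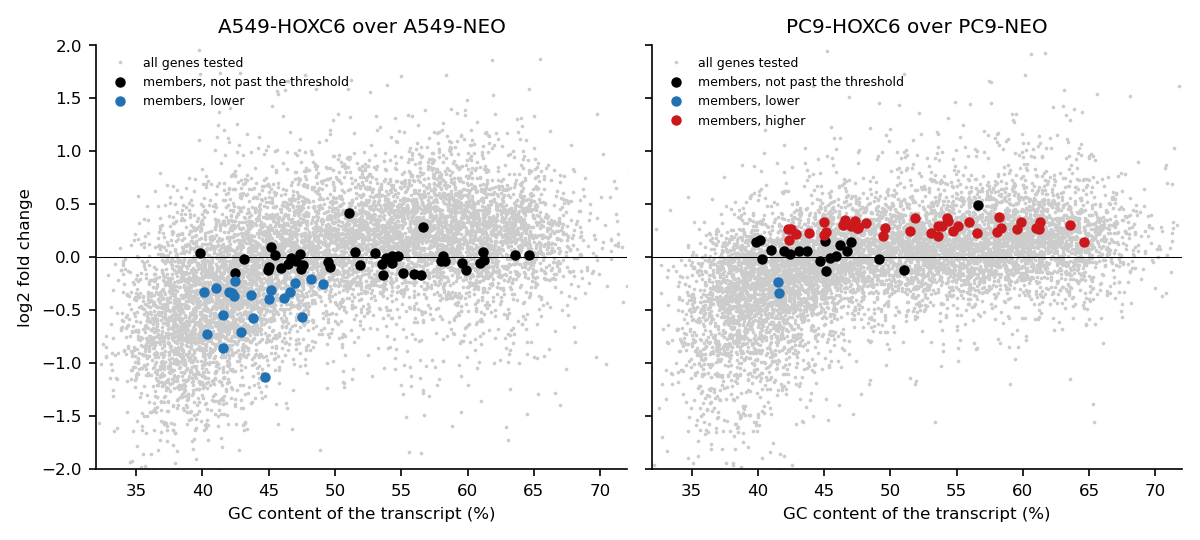
Log2 fold change of HOXC6 over NEO against the GC content of the canonical transcript in A549 (left) and PC9 (right); grey points are all genes tested and coloured points the 61 members. Members that were lower in A549 had a median GC content of 43.7%, and members that were higher in PC9 a median of 52.4%.

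With the empty vector, most members had higher normalized levels in A549 than in PC9. In A549-NEO in comparison to PC9-NEO, 42 of 61 members (68.9%) were higher, where 36.9% of all genes tested were higher, and 5 were lower, where 35.7% of all genes were. The median log2 fold change was 0.36 over members and 0.02 over all genes. Of the 42, 13 (21.3% of the members tested) exceeded 1, where 19.6% of all genes did, and 0 members were called below -1, where 16.4% of all genes were. The groups were apart for 39 members that were higher and 9 that were lower, where 36.3% and 38.2% of all genes were. Scaling by library size only moved the median of all genes by -0.11 and gave 34 members higher and 12 lower, with a member median of 0.25, and the correction for GC content and length gave 49 and 3. The share of all genes called is not given for either setting.

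The small subunit genes RPS16 and RPS19 were among those furthest apart. RPS16 (ENSG00000105193, GRCh37 chromosome 19 from 39923777 to 39926589) had 4478, 4446 and 4338 CPM in A549-NEO and 1531, 1497 and 1678 CPM in PC9-NEO (log2 fold change 1.53 ± 0.05 (SE), adjusted p = 4.2e-26). RPS19, the gene most often mutated in Diamond-Blackfan anaemia, had 3095, 3175 and 2922 CPM and 1097, 1155 and 1234 CPM (log2 fold change 1.44 ± 0.05 (SE), adjusted p = 2.3e-24). Their fitted levels in A549-NEO were 2.90 and 2.71 times those in PC9-NEO. RPL13 (1.49 ± 0.05, SE), RPLP1 (1.42 ± 0.06), RPL18 (1.31 ± 0.05), RPS6 (1.29 ± 0.05), RPL23 (1.28 ± 0.07), EEF1B2 (1.19 ± 0.07), RPL7 (1.18 ± 0.05), RPL27 (1.16), RPL19 (1.12) and RPS20 (1.12) also exceeded 1 on the log2 scale. RPL3L had the largest difference (2.58 ± 0.34 (SE), adjusted p = 2.1e-08), from 61, 39 and 51 counts in A549-NEO and 3, 11 and 6 counts in PC9-NEO, of which the first is at the floor of 3 counts.

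The elongation factors did not differ alike. EEF1B2 had 368, 384 and 376 CPM in A549-NEO and 174, 157 and 176 CPM in PC9-NEO, and EEF2 had 9224, 8956 and 9088 CPM and 4649.6, 4772 and 4986 CPM. Their fitted levels in A549-NEO were 2.28 and 1.95 times those in PC9-NEO. EEF1A1 differed by 0.32 ± 0.04 (SE), adjusted p = 1.5e-09. EEF1D, the partner of EEF1B2 in nucleotide exchange, had 967, 894 and 923 CPM and 943, 939 and 946 CPM, which overlapped (log2 fold change 0.02 ± 0.05 (SE), adjusted p = 0.78). RPLP0 (0.59) and RPSA (0.81) were higher in A549-NEO with adjusted p of 2.0e-14 and 9.0e-16.

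The 5 members that were lower in A549-NEO included RPL7L1, RPL28, RPL21 and RPL24. RPL28, of the large subunit, had 3469, 3307 and 3228 CPM in A549-NEO and 4201, 4095 and 4439.5 CPM in PC9-NEO (log2 fold change -0.31 ± 0.04 (SE), adjusted p = 1.2e-07). All 5 were apart between the groups. RPL21 (-0.22) and RPL24 (-0.20) each lost the call when 1 library was left out, the first A549-NEO library for RPL21 and the third PC9-NEO library for RPL24, and they were at 0.00 and 0.03 once GC content and length were corrected for.

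**Figure D5:**
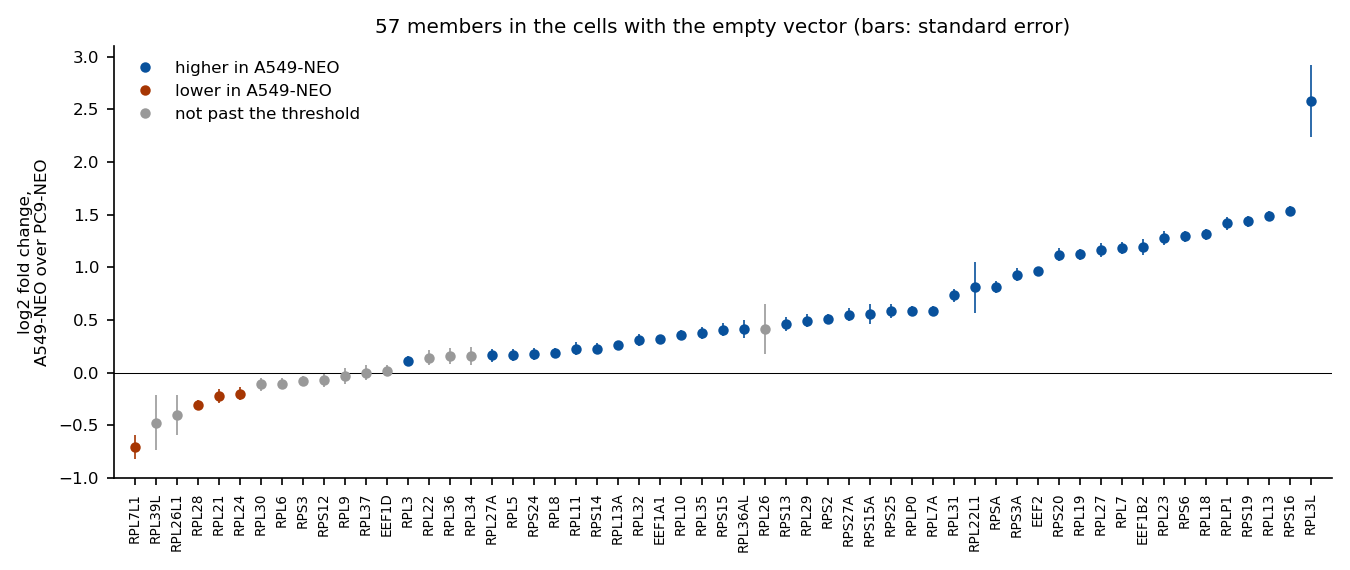
Log2 fold change of A549-NEO over PC9-NEO for 57 of the tested members in rising order, with standard errors. Members that were higher in A549-NEO reach from 0.11 (RPL3) to 2.58 (RPL3L), and those that were lower from -0.70 (RPL7L1) to -0.20 (RPL24). RPL3L rested on 3, 11 and 6 counts in PC9-NEO.

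RPL7L1, RPL22L1 and RPL3L stood far below their parent genes, and not in the same proportion in each line. RPL7L1, a diverged paralog of RPL7, had 58.3, 67.9 and 54.2 CPM in A549-NEO and 95.1, 96.7 and 109 CPM in PC9-NEO (log2 fold change -0.70 ± 0.11 (SE), adjusted p = 1.0e-06), opposite to its parent RPL7. The log2 ratio of RPL7L1 to RPL7 per kilobase was -6.27 ± 0.17 (SD, n = 3) in A549-NEO, -5.52 ± 0.03 in A549-HOXC6, -4.38 ± 0.13 in PC9-NEO and -4.37 ± 0.08 in PC9-HOXC6. The shift between the A549 groups came with the fall of RPL7, since RPL7L1 had 64.0, 62.5 and 61.5 CPM in A549-HOXC6 (log2 fold change 0.02, adjusted p = 0.92). RPL22L1, the paralog of RPL22, had 18.4, 28.9 and 17.7 CPM in A549-NEO and 14.1, 12.6 and 11.5 CPM in PC9-NEO (log2 fold change 0.81 ± 0.24 (SE), adjusted p = 0.0033), with a log2 ratio to RPL22 of -3.92 ± 0.31 and -4.56 ± 0.11. RPL3L was at a log2 ratio of -8.13 ± 0.24 to RPL3 in A549-NEO and -10.8 ± 0.92 in PC9-NEO, the latter from 3, 11 and 6 counts of RPL3L. RPL26L1 and RPL26, which both rest on few counts, were closer, with a log2 ratio of -0.86 ± 0.93 in A549-NEO, 0.16 ± 0.84 in A549-HOXC6, -0.18 ± 0.16 in PC9-NEO and -0.32 ± 0.30 in PC9-HOXC6. Of the paralogs, RPL36AL alone passed the test with HOXC6, in both lines, and RPL10 and RPL3, parents of RPL10L and RPL3L, were higher in PC9-HOXC6 (0.25 and 0.34).

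Other genes of translation were counted in the same fits, without the correction for GC content and length, beside the backgrounds given above. Of 7 other genes known for TOP mRNAs, 6 were lower and 0 higher in A549-HOXC6, 2 were higher and 1 lower in PC9-HOXC6, and 5 were higher and 0 lower in A549-NEO in comparison to PC9-NEO. EIF3E, a subunit of initiation factor 3, was the gene of that list with the largest fall in A549 (log2 fold change -1.31 ± 0.09, SE, adjusted p = 4.3e-12) and also fell in PC9 (-0.44 ± 0.07, adjusted p = 9.4e-06). PABPC1, the poly(A) binding protein, had -0.51 ± 0.07 in A549 and 0.29 ± 0.05 in PC9, and its difference between the lines passed the test (-0.76, adjusted p = 2.8e-08), as did those of EIF4B, EIF3E and EIF3H. FAU, a small subunit protein made as a fusion and the only gene of its list in the table, was higher in PC9-HOXC6 (0.30), and did not pass in A549-HOXC6 (0.03) or between the NEO lines (-0.04).

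Beside the lists below, 18.9% of all genes tested were higher and 20.7% lower in A549-HOXC6. The shares were 13.3% and 14.2% in PC9-HOXC6, and 36.9% and 35.7% in A549-NEO in comparison to PC9-NEO. Of 60 genes that act in ribosome biogenesis, 1 was higher and 20 were lower in PC9-HOXC6, where 40 members were higher, with a median log2 fold change of -0.24, and 11 were higher and 20 lower in A549-HOXC6 (median -0.22). In A549-NEO in comparison to PC9-NEO, 19 were higher and 22 lower. Of 47 tested mitochondrial ribosomal proteins, 12 were higher and 6 lower in A549-HOXC6, 2 were higher and 2 lower in PC9-HOXC6, and 15 were higher and 21 lower in A549-NEO. Genes with a symbol of the initiation factor series, among them the kinases EIF2AK1, EIF2AK2 and EIF2AK4 and the pseudogene EIF2S2P4, were higher in 7 and lower in 15 of 40 genes in A549-HOXC6, higher in 4 and lower in 13 of 39 in PC9-HOXC6, and higher in 13 and lower in 14 of 40 in A549-NEO. EIF4B, EIF3E and EIF3H of the TOP list are counted among these as well, and EIF5A2 is counted both here and in the next list. Of 9 other elongation and termination factors, among them TSFM, GFM1 and GFM2, 1 was higher and 3 lower in each line with HOXC6, and 0 were higher and 3 lower in A549-NEO. Of the aminoacyl-tRNA synthetase list the table holds FARSB, a synthetase subunit, and AIMP1 and AIMP2, scaffold proteins of the synthetase complex. FARSB did not pass with HOXC6 in either line, and of the 3 genes 1 was higher and 1 lower in A549-HOXC6, 0 higher and 2 lower in PC9-HOXC6, and 0 higher and 2 lower in A549-NEO. Genes of TOR signalling and regulators of translation, with MYC and LARP4 among them, were higher in 3 and lower in 3 of 15 in A549-HOXC6, likewise in 3 and 3 of 16 in PC9-HOXC6, and higher in 5 and lower in 7 of 16 in A549-NEO. Proteasome subunits, another large and abundant complex, were higher in 9 and lower in 5 of 35 in A549-HOXC6, higher in 3 and lower in 12 in PC9-HOXC6, and higher in 10 and lower in 14 in A549-NEO.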

How the data were processed

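RNA-seq libraries of A549-HOXC6, A549-NEO, PC9-HOXC6 and PC9-NEO cells were analysed, 3 per group and 12 in all, with groups and replicate numbers taken from the labels. The authors isolated polyadenylated RNA, made stranded libraries, sequenced paired reads, aligned them with HISAT2 2.1.0 to GRCh37.p13 and counted them per gene with HTSeq 0.9.1 (versions from the submitters' processing notes). The deposited values are raw read counts per gene, 1 column per library, neither normalized nor pooled. The strand setting, the handling of reads that match several genes and the annotation release are not given in the sources used here. The table used here holds 12584 genes and 1 incomplete last line that was left out, so library totals, scaling and adjustment cover part of the genes. Lengths, GC content and first bases came from GENCODE release 44 on GRCh37, which holds all but 121 of the genes.

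Counts were filtered with filterByExpr and scaled by TMM. The test was the quasi-likelihood test of edgeR 4.0.16 in R 4.3.3, adjusted by Benjamini-Hochberg over all genes tested (8771 in A549, 8419 in PC9, 9076 between the NEO groups and 9229 for the interaction), with calls at an adjusted p under 0.05. Levels are TMM-normalized CPM on 1 scale over 12 libraries, and fold changes come from each comparison's own fit, so that a ratio of printed levels can differ slightly. SEs derive from the F statistic. The fits were run on simulated counts in which some genes changed by a known amount, larger than that of most members. These counts held no trend on GC content or length, so they check the code and not the calls of members. Replicates of a group differed by more than sampling noise (chi-square per degree of freedom 1.58 to 4.26), and none was counted as a duplicate. Limits set by 3 counts cover counting error only.

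Members named were, in each comparison, the 5 called members with the largest change in each direction with a mean of at least 10 CPM and, except for the interaction, groups that did not overlap. The stalk proteins, RPSA, elongation factors, paralogs with their parents, and the 5 members with the highest and lowest levels per kilobase were added. A few members are not reported here by name, though they are in the counts. Other members named were chosen after their values were seen. The members and gene lists were chosen with earlier results of these data known. The alternatives were other scalings, filters and thresholds, DESeq2 1.42.0, 1 model over 12 libraries, a block for the replicate number, smooth trends per library on GC content and transcript length as offsets (mgcv 1.9.3), and leaving out each library. The share of all genes called is given for the main fits and the fold threshold only. Counts of members under the other alternatives stand without a background.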

Additional observations from a re-analysis of the deposited data

Results flagged for a closer look

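The HOXC6 effect differed between the lines by the test of the difference itself (edgeR's quasi-likelihood test, interaction over 12 libraries, adjusted p under 0.05) in 35 members, each with the lower log2 fold change in A549. Values are the log2 fold change in A549 minus that in PC9, and 8.44% of all genes tested passed in this direction. Of the large subunit genes that were lower in A549-HOXC6, the differences were those of RPL26 (-1.06), RPL37 (-0.88), RPL7 (-0.67), RPL24 (-0.64), RPL9 (-0.56), RPL5 (-0.50), RPL11 (-0.48), RPL31 (-0.45), RPL23 (-0.37) and RPL22 (-0.34). Of the small subunit genes that were lower in A549-HOXC6, they were those of RPS15A (-0.79), RPS24 (-0.76), RPS13 (-0.50), RPS20 (-0.49), RPS6 (-0.48) and RPS25 (-0.46). Large subunit genes that did not pass in A549 alone were RPL7A (-0.40), RPL28 (-0.39), RPLP1 (-0.34), RPL29 (-0.34), RPL32 (-0.33), RPL35 (-0.33), RPL19 (-0.33) and RPL3 (-0.28), and small subunit genes of that kind included RPS19 (-0.44), RPS3 (-0.37), RPS3A (-0.37), RPS16 (-0.31), RPS14 (-0.31) and RPS2 (-0.28). The remaining genes were the paralog RPL36AL (-0.47), which fell in both lines, and the elongation factors EEF2 (-0.41) and EEF1A1 (-0.21). Of these 35 members, 20 were called in each of the 12 fits that left out 1 library, and 35 were called once GC content and length were corrected for. RPL29 was called in 1 of the 12 fits, RPS2 in 3, and RPL26 and EEF1A1 in 4 each.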

How the results depend on the processing

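Once GC content and length were corrected for, 47 members were lower in A549-HOXC6 (median log2 fold change -0.31, and 47 and -0.32 with the replicate block), PC9-HOXC6 had 26 higher and 1 lower (median 0.12, and 1 lower and 0.12 with the block), A549-NEO had 3 lower against PC9-NEO (median 0.57, and 3 and 0.57 with the block), and the median difference between the lines was -0.39 with the block. It turned the sign in A549 of EEF1D (-0.27), RPL10 (-0.23), RPL13 (-0.31), RPL3 (-0.32), RPL35 (-0.28), RPL8 (-0.30) and RPLP0 (-0.28), in PC9 of EEF1D (-0.0939) and RPL7 (0.26), and between the NEO groups of RPL21 (0.0022) and RPL24 (0.026). With the block added these values were -0.27, -0.23, -0.32, -0.32, -0.28, -0.30, -0.28, -0.0923, 0.26, 0.0029 and 0.031. The uncorrected fits of EEF1D, RPL10, RPL13, RPL3, RPL35, RPL8 and RPLP0 in A549 and of RPL7 in PC9 had not passed the test. The share of all genes called under the correction is not given.

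Scaling by library size only moved the median of the members to 0.16 in PC9 and to 0.25 between the NEO groups, with 12 lower there, moved the median of all genes by -0.08 and -0.11, and put RPL3 at -0.0023 between the NEO groups, by construction of the scaling. A fold threshold of 1 left 1 member lower in A549, 0 higher and 0 lower in PC9, 13 higher and 0 lower between the NEO groups and 1 lower in the difference. At an adjusted p under 0.01, 1 member was lower in PC9 and 19 in the difference, and DESeq2 called 1 lower in PC9. Without the 5 most abundant members the share of counts was 6.80% in A549-NEO, 6.11% in A549-HOXC6, 5.04% in PC9-NEO and 5.66% in PC9-HOXC6. On the TMM scale the mean share of all members was 10.4% in A549-NEO, 9.93% in A549-HOXC6, 7.69% in PC9-NEO and 9.05% in PC9-HOXC6. RLE factors, TMM without the members, other count filters and 1 model over 12 libraries turned no named member.

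Leaving out 1 library gave 0 higher and 15 to 36 lower in A549 (median -0.15 to -0.07), 32 to 39 higher and 0 to 2 lower in PC9 (median 0.19 to 0.28), 39 to 46 higher and 4 to 7 lower between the NEO groups (median 0.34 to 0.37), and 0 to 1 higher and 24 to 49 lower in the difference (median -0.39 to -0.27). RPL13 ran from -0.13 to 0.10 and RPL8 from -0.12 to 0.11 in A549, and both turned without the third A549-HOXC6 library. Where a fit left 2 libraries in a group, the spread was pooled over the groups. The share of all genes called is not given for these fits.

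Same-numbered libraries had correlations of deviations from -0.05 to 0.04. These deviations also hold counting noise, so they do not settle whether the replicate numbers pair the libraries. With the replicate block, 0 members were higher and 23 lower in A549, 42 higher and 2 lower in PC9, 42 higher and 5 lower between the NEO groups, and 0 higher and 41 lower in the difference, and no call of a named member was lost. Over named members and alternatives, 2233 values kept direction and side of the threshold, 101 passed anew, 125 no longer passed and 25 turned. Depth limits RPL26, RPL26L1, RPL39L, RPL22L1 and RPL3L, each under 45 CPM in every library, and RPS10 and RPL10L could not be tested.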
